A study of Mus musculus with 8 samples.

Results

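The genes described here are 9 markers of the dermal papilla, Corin, Inhba, Rspo3, Notum, Alx4, Fgf7, Fgf10, Sox2 and Prdm1, in hair matrix keratinocytes of newborn mice. They were taken as the rows of both deposited tables whose gene name is one of the 9, and all 9 were found in each table, among 29647 genes of the untreated table and 29246 genes of the 5-aza table. The groups were untreated Tet2/3 double knockout (DKO) mice, untreated wild type (WT) mice, DKO mice given 5-aza and WT mice given 5-aza, with 2 libraries in each. Cells were sorted by flow cytometry from skin taken at postnatal day 4.5 in every group, and the 5-aza mice had received 50 µg of the drug under the skin at postnatal day 2.5. TET2 and TET3 oxidise methylated cytosine in DNA, and 5-aza is a cytosine analogue that blocks DNA methyltransferases. The labels give neither the Cre line or allele behind the knockout, nor the markers of the sort, nor strain or sex. They do not say whether libraries came from separate animals or pools, so p-values measure only the spread between these libraries.

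The dermal papilla is a cluster of specialised fibroblasts at the base of the hair follicle, enclosed by the matrix keratinocytes that divide to form the hair shaft and its sheaths. It signals to those keratinocytes through secreted factors of the Wnt, FGF, BMP and activin families, and its cells are recognised by the transcription factors and surface proteins they share with few other skin cells. A sort for matrix keratinocytes is meant to leave papilla cells out.

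The tables place all 9 genes on GRCm38 as protein-coding genes, with the same ends as GENCODE vM21, and the values count reads over their exons. Of the secreted signals, Rspo3 lies at chr10:29452416-29535867 (minus strand, ENSMUSG00000019880), Fgf7 at chr2:126034658-126091185 (plus strand, ENSMUSG00000027208), Fgf10 at chr13:118669791-118792115 (plus strand, ENSMUSG00000021732) and Inhba at chr13:16011851-16031621 (plus strand, ENSMUSG00000041324). The Wnt inactivating enzyme Notum lies at chr11:120653788-120661175 (minus strand, ENSMUSG00000042988) and the protease Corin at chr5:72300025-72504473 (minus strand, ENSMUSG00000005220). Of the transcription factors, Alx4 lies at chr2:93642384-93681339 (plus strand, ENSMUSG00000040310), Sox2 at chr3:34650405-34652461 (plus strand, ENSMUSG00000074637) and Prdm1 at chr10:44437177-44528501 (minus strand, ENSMUSG00000038151). Fgf10 and Inhba share chromosome 13, Fgf7 and Alx4 chromosome 2, and Rspo3 and Prdm1 chromosome 10.

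RefSeq start sites were matched for 6 of the 9 genes (Corin, Inhba, Fgf7, Fgf10, Sox2 and Prdm1). Each window runs from 250 bases before to 50 bases after the start, on GRCm38.p6 and on the strand of the gene. Because TET enzymes and methyltransferases act mainly on cytosines that precede a guanine, 4 windows are shown with every CG in capitals, to let the wide range of CG content among the genes be seen. No methylation value was used here. The window of Corin is chr5:72504491-72504790 (minus strand), that of Inhba chr13:16011601-16011900 (plus strand), that of Fgf7 chr2:126034408-126034707 (plus strand) and that of Sox2 chr3:34649745-34650044 (plus strand).
Corin: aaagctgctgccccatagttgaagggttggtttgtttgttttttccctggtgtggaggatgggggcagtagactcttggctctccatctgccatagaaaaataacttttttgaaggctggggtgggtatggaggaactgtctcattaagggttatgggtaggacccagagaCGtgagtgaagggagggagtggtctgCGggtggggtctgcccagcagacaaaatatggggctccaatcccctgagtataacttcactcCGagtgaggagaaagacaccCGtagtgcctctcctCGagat
Inhba: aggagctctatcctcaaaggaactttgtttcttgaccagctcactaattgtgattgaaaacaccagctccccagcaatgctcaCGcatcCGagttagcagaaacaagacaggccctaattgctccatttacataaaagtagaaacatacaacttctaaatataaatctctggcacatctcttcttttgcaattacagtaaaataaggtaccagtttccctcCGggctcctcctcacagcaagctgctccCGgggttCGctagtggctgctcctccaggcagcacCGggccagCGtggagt
Fgf7: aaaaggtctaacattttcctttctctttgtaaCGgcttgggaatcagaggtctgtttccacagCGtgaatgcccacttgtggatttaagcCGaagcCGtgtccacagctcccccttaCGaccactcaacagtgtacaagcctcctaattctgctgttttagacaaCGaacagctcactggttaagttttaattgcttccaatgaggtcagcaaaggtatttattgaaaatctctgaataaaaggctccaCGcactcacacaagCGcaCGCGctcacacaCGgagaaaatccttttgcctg
Sox2: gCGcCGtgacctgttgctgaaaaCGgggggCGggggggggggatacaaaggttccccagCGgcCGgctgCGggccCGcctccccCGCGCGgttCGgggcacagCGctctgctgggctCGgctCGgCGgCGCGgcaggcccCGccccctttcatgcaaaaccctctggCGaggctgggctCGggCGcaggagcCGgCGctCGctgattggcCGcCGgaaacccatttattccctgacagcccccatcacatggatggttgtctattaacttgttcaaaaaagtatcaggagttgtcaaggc
The Corin window held 5 CG, the Inhba window 7, the Fgf7 window 11 and the Sox2 window 27, against a median of 7 over all promoter windows of this length. The windows of Fgf10 and Prdm1, which held 10 and 20 CG, lie at start sites inside those genes and are not shown, and the windows of Corin and Sox2 lie wholly upstream of the starts of those genes in GENCODE vM21. The Wnt response core CTTTGA, searched on both strands, was found 1 time in the Inhba window and 0 times in the other 5 matched windows, and 16% of all windows hold it.

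All 8 libraries had FPKM, reads per kilobase of the deposited gene length, scaled to the total of the library. Totals were 19528602 to 22837436 reads in the untreated libraries, of which 55.8% to 62.0% lay in listed genes, and 39493929 to 58353167 in the 5-aza libraries, of which 38.4% to 42.4% did. The 2 tables were made separately, and the labels name 2 RNA kits and 2 library kits without tying them to groups, so levels are compared by test only within a table. Tet3, one of the deleted genes, was 6.92 and 7.31 FPKM in DKO libraries against 11.8 and 11.4 FPKM in WT libraries without drug, and 6.54 and 5.99 against 10.4 and 11.5 FPKM after 5-aza. Tet2 was 2.72 and 2.55 FPKM in DKO against 3.23 and 3.28 FPKM in WT without drug, and 1.58 and 1.56 against 1.81 and 2.00 FPKM after 5-aza, and a value of the whole gene does not check a deleted exon. Xist was 74.4 and 1.19 FPKM in untreated DKO replicates 1 and 2 against 82.1 and 0.327 FPKM in untreated WT replicates 1 and 2, with the Y-linked Ddx3y high in replicate 2 of both genotypes. After 5-aza all 4 libraries held both transcripts, with Xist at 4.60 and 3.65 FPKM in DKO and 16.9 and 23.1 FPKM in WT; its part in the results was not tested.

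Without drug, most of the 9 genes had lower values in DKO than in WT matrix cells. The DKO mean was 0.444 of the WT mean for Corin, 0.493 for Sox2 and 0.537 for Inhba and Rspo3, while that of Fgf10 was 1.02 of it. In 7 of the 9 genes both DKO libraries were below both WT libraries, an arrangement found in 19.3% of all tested genes. The genes together summed to 80.4 and 80.8 FPKM in the DKO libraries against 131 and 114 FPKM in the WT libraries. In bulk RNA, fewer papilla cells in the sort and less RNA of these genes per cell cannot be told apart. No gene of the 9 passed the adjusted threshold of 0.05 in limma, which called 1 of 17339 genes (0.00577%); 1986 genes had an unadjusted p under 0.05, voom called 147 genes, and the authors' deposited test called 379 genes.

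**Figure D1:**
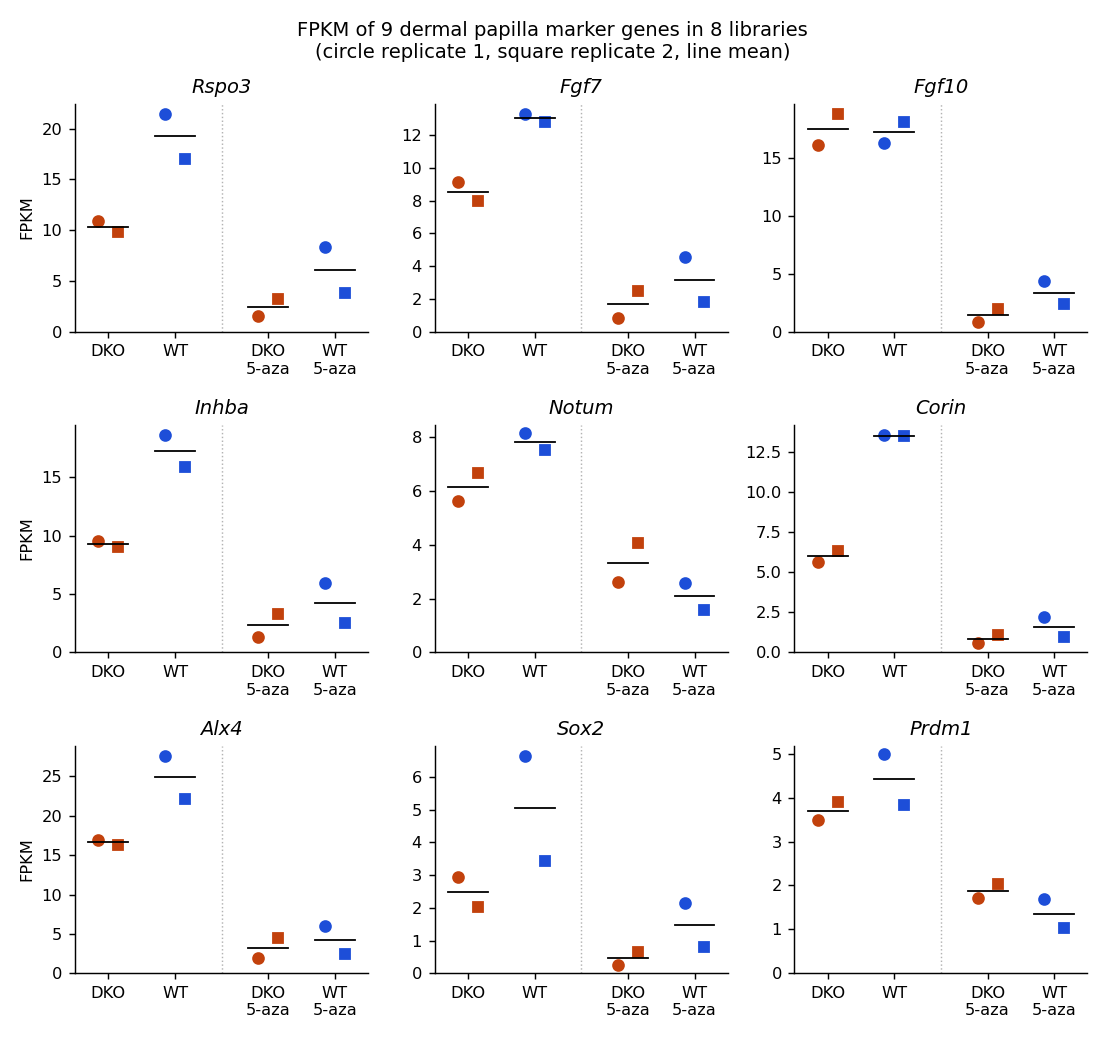
FPKM (vertical axes, from 0) of each gene in the 8 libraries, with DKO left of WT, untreated left of the dotted line and 5-aza right of it; circles are replicate 1, squares replicate 2 and lines the means. Without drug, DKO points lie below WT points in 7 panels, overlap them in Fgf10 and Prdm1, and after 5-aza the replicates of a group lie far apart.

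Rspo3, a secreted agonist that strengthens Wnt signalling in receiving cells, was 10.9 and 9.82 FPKM in untreated DKO libraries against 21.5 and 17.0 FPKM in untreated WT libraries. The groups did not overlap, and both DKO libraries were nearly equal. The difference was -0.83 ± 0.14 (SE) on the log2(FPKM + 1) scale (limma, adjusted p = 0.185), and the authors' deposited table gives -0.93 on its log2 scale with an adjusted p of 8.44e-06. An antisense transcript covers 13.1% of the exonic bases of Rspo3, and whether reads were counted by strand is not given.

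Fgf7, the keratinocyte growth factor, was 9.15 and 7.95 FPKM in DKO libraries against 13.3 and 12.8 FPKM in WT libraries. Each DKO library lay below each WT library by more than the gap between replicates. The difference was -0.56 ± 0.10 (limma, adjusted p = 0.214), and in the authors' deposited table it was -0.64 with an adjusted p of 0.00186. Fgf10, a ligand of the same receptor family, was 16.1 and 18.8 FPKM in DKO libraries against 16.3 and 18.1 FPKM in WT libraries. The groups overlapped fully, and the 95% interval of the log2 difference ran from -0.30 to 0.34. The point estimate of 0.018 turned to -0.0070 with median-ratio scaling and to -0.018 with scaling to reads in genes. Within each library the ratio of Corin to Fgf10 was therefore unlike between genotypes, 0.352 and 0.338 in DKO against 0.833 and 0.747 in WT.

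Inhba, which encodes the subunit of activin A, was 9.52 and 8.99 FPKM in untreated DKO libraries against 18.6 and 15.8 FPKM in untreated WT libraries. The groups did not overlap, and the mean of the DKO libraries was 0.537 of the WT mean. The difference was -0.83 ± 0.11 (limma, adjusted p = 0.151), against -0.93 with an adjusted p of 5.07e-08 in the authors' deposited table.

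Notum, a secreted enzyme that removes the lipid of Wnt proteins and so inactivates them, was 5.65 and 6.68 FPKM in DKO libraries against 8.14 and 7.53 FPKM in WT libraries. The groups did not overlap, but the gap between them was smaller than that between the DKO replicates. The difference was -0.31 ± 0.11 (limma, unadjusted p = 0.0414, adjusted p = 0.416). Notum shares 29.4% of its exonic bases with the antisense gene Notumos and 8.72% with another antisense gene, so its value may hold reads of either.

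Corin, a membrane protease that cuts the precursor of atrial natriuretic peptide in the heart and, in mouse skin, marks the papilla and acts in coat colour, was 5.68 and 6.35 FPKM in DKO libraries against 13.6 and 13.5 FPKM in WT libraries. It had the smallest p of the 9 genes, and its DKO mean was 0.444 of its WT mean. The difference was -1.05 ± 0.09 (limma, adjusted p = 0.0831), and -1.20 with an adjusted p of 2.32e-20 in the authors' deposited table. Corin passed the threshold when voom weights were used (adjusted p = 0.00519) and when FPKM was rebuilt on the union of exons (adjusted p = 0.0412), and missed it in the other 12 settings tried, whose adjusted p reached 0.543. With voom, Inhba (adjusted p = 0.0187) and Rspo3 (adjusted p = 0.0327) passed as well.

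Alx4, a homeobox factor of mesenchymal cells, was 17.0 and 16.3 FPKM in DKO libraries against 27.6 and 22.2 FPKM in WT libraries, with no overlap. Its difference was -0.54 ± 0.14 (limma, adjusted p = 0.285), and -0.61 with an adjusted p of 0.00246 in the authors' deposited table. Sox2, a factor of papilla cells of some hair types and also of Merkel cells, was 2.96 and 2.02 FPKM in DKO libraries against 6.64 and 3.44 FPKM in WT libraries. The WT replicates of Sox2 differed by more than the means of the genotypes did, at 81 to 135 reads in DKO and 161 to 312 in WT, and the difference was -0.75 ± 0.30 (limma, adjusted p = 0.449). Prdm1, a repressor that is expressed in the papilla and in sheath cells of the epithelium, was 3.50 and 3.90 FPKM in DKO libraries against 4.99 and 3.84 FPKM in WT libraries. Its groups overlapped (-0.20 ± 0.13, limma, adjusted p = 0.654).

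Before adjustment, 6 of the 9 genes had p under 0.05 and a lower DKO value, against 4.73% of all tested genes, and the median of the 9 differences was -0.56 against 0.01 over all genes. The authors' deposited test called 5 of the 9 lower in DKO (Corin, Inhba, Rspo3, Fgf7 and Alx4), against 0.486% of all listed genes. Between the replicate 1 libraries, which had high Xist in both genotypes, all 9 differences were negative with a median of -0.67. Between the replicate 2 libraries 7 were negative with a median of -0.56, and Fgf10 (0.05) and Prdm1 (0.02) were the exceptions.

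A list of 16 other papilla markers was below WT in the same libraries. All 16 had a negative difference without drug (median -0.47), 13 had both DKO libraries below both WT libraries, 11 had an unadjusted p under 0.05, and 0 passed the adjusted threshold in limma. Their summed level was 264 to 288 FPKM in DKO against 412 to 419 FPKM in WT. Crabp1, a retinoic acid binding protein of the papilla, was 56.9 and 52.2 FPKM in DKO against 103 and 136 FPKM in WT (-1.10 ± 0.20, limma, adjusted p = 0.214), and Wif1, a secreted Wnt inhibitor, was 68.0 and 60.3 FPKM in DKO against 62.7 and 67.7 FPKM in WT. Wif1, like Fgf10, had overlapping groups. After 5-aza 13 of the 16 markers had a negative difference and 3 a positive one, with a median of -0.13 against -0.64 for the 9 genes. In 2 of the 16 both DKO libraries were then below both WT libraries, an arrangement found in 11.6% of all tested genes.

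Markers of other cells differed in their direction. The 10 dermal fibroblast markers summed to 1161 to 1380 FPKM in DKO libraries against 489 and 1289 FPKM in WT libraries, with WT replicate 1 the low one, and Col1a1, a collagen chain, was 886 and 773 FPKM in DKO against 267 and 819 FPKM in WT. That library, the lowest in fibroblast markers, was the highest of the 4 in 8 of the 9 papilla genes, all but Fgf10. The 10 hair matrix and epithelial markers were all higher in DKO (median difference 0.64), at 868 to 971 FPKM in DKO against 472 to 581 FPKM in WT, and 1 of them, the basal keratin Krt14, was called higher over both tables (1.23 ± 0.16, limma, adjusted p = 0.0340). The 10 melanocyte markers summed to 44.1 to 45.6 FPKM in DKO against 36.0 to 37.9 FPKM in WT. The 10 markers of Merkel and Schwann cells, which can express Sox2, summed to 6.50 to 6.95 FPKM in DKO. In WT they summed to 11.2 to 11.8 FPKM. Of that list, S100b was 2.07 and 2.25 FPKM in DKO against 6.48 and 5.78 FPKM in WT. Ngfr was 2.15 and 2.32 FPKM in DKO against 3.02 and 5.12 FPKM in WT. Of these 10 markers, 3 had both DKO libraries below both WT libraries and 5 had both above. The 10 immune markers summed to 14.4 to 17.7 FPKM in DKO against 5.03 to 7.71 FPKM in WT. All 8 of those tested had a positive difference, 6 with an unadjusted p under 0.05 and 0 past the adjusted threshold in limma. Of all 17339 tested genes, 1165 had an unadjusted p under 0.05 and a higher DKO value. The 10 inner root sheath markers summed to 411 to 571 FPKM in DKO against 359 to 383 FPKM in WT. Of them, 4 had both DKO libraries above both WT libraries and 3 had both below. Among the latter, Krt28 was 1.98 and 2.85 FPKM in DKO against 70.4 and 70.7 FPKM in WT. It was the 1 gene that limma called without drug (-4.40 ± 0.15, limma, adjusted p = 0.0235). The 10 endothelial and mural markers summed to 65.1 to 66.9 FPKM in DKO against 41.4 to 87.7 FPKM in WT. Of them, 7 had both DKO libraries above both WT libraries and 1 had both below. Both were below in 19.3% of all tested genes. The share of all genes with both above without drug was not computed, so the counts above have no baseline. No marker list was at 0 as a whole; the part of these cells in the papilla gene values was not tested.

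**Figure D2:**
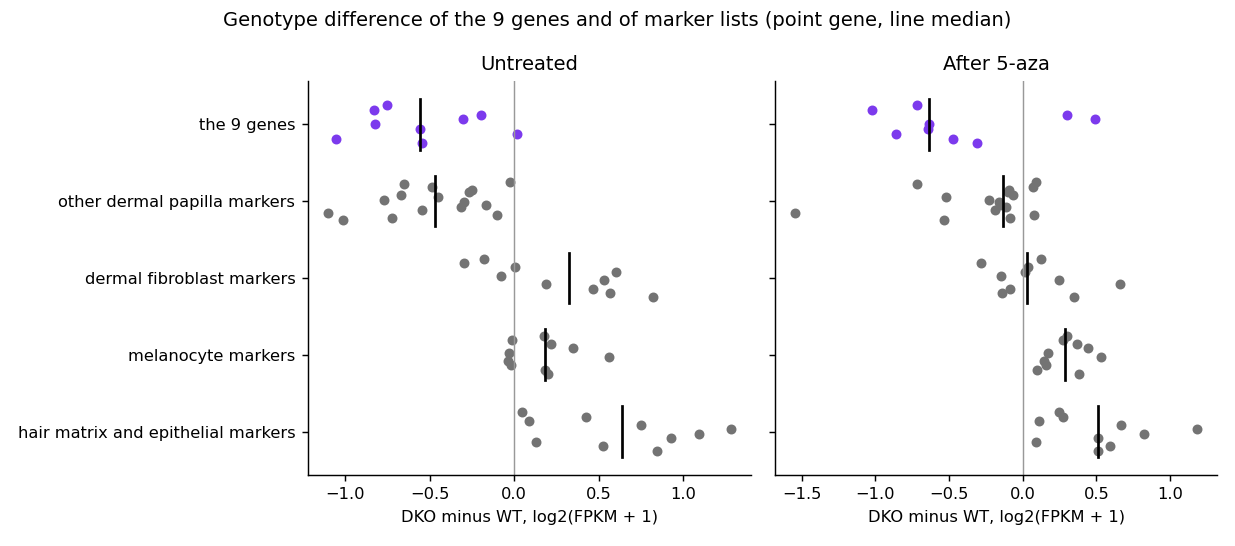
DKO minus WT difference in mean log2(FPKM + 1) (horizontal axes) for the 9 genes and 4 marker lists (rows), without drug at left and after 5-aza at right; points are genes and lines medians. Without drug the 9 genes and the other papilla markers centre at -0.56 and -0.47, and the epithelial markers at 0.64. After 5-aza the 9 genes and the other papilla markers centre at -0.64 and -0.13.

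After 5-aza every library was below every untreated library for 8 of the 9 genes, across tables that were normalized separately. The exception was Sox2, at 2.14 FPKM in WT replicate 1 after 5-aza and 2.02 FPKM in untreated DKO replicate 2. In each of the 9 genes the wider gap between replicates exceeded the gap between the genotype means. The 9 genes summed to 11.6 and 23.3 FPKM in DKO libraries against 37.7 and 17.4 FPKM in WT libraries. limma called 0 of 16856 genes (0%), voom called 0 and 1507 genes had an unadjusted p under 0.05 in limma. In all, 1952 genes (11.6%) had both DKO libraries below both WT libraries. Of the 9 genes, 3 did so (Rspo3, Fgf10 and Sox2). Notum and Prdm1 had both DKO libraries above both WT libraries, as did 28% of all tested genes. Scaled to reads in listed genes, the groups of both genes overlapped. DKO replicate 1 was then below WT replicate 1, at 6.19 against 6.59 for Notum and 4.02 against 4.30 for Prdm1. The authors' deposited test called 207 genes after 5-aza, 160 of them higher and 47 lower in DKO. It called 0 of the 9 genes lower, against 0.161% of all listed genes.

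Among the signals, Rspo3 was 1.58 and 3.16 FPKM in DKO libraries against 8.35 and 3.77 FPKM in WT libraries given 5-aza (-1.03 ± 0.41, limma, adjusted p = 0.575). Fgf10 was 0.851 and 1.94 FPKM in DKO against 4.34 and 2.36 FPKM in WT (-0.86 ± 0.32, limma, adjusted p = 0.561). For both genes the lower WT library lay above the higher DKO library. Fgf7 was 0.825 and 2.49 FPKM in DKO against 4.53 and 1.82 FPKM in WT, and Inhba was 1.32 and 3.30 FPKM in DKO against 5.91 and 2.49 FPKM in WT. In both of these the groups overlapped, since DKO replicate 2 was above WT replicate 2, and the differences were -0.65 ± 0.46 for Fgf7 and -0.64 ± 0.45 for Inhba (limma, adjusted p = 0.750 for each).

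Notum stood apart from the other signals, with 2.62 and 4.06 FPKM in DKO libraries against 2.59 and 1.59 FPKM in WT libraries. DKO replicate 1 exceeded WT replicate 1 by very little, and the difference was 0.49 ± 0.24 (limma, adjusted p = 0.639). Corin was 0.562 and 1.12 FPKM in DKO against 2.20 and 0.985 FPKM in WT, with overlapping groups (-0.47 ± 0.28, limma, adjusted p = 0.706).

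Of the transcription factors, Alx4 was 1.90 and 4.51 FPKM in DKO libraries against 5.98 and 2.51 FPKM in WT libraries. The groups overlapped, and the difference of -0.31 ± 0.46 (limma, adjusted p = 0.893) turned positive without WT replicate 1 (0.19) or without DKO replicate 1 (0.15). Sox2 was 0.271 and 0.650 FPKM in DKO against 2.14 and 0.796 FPKM in WT, on 22 to 78 reads in DKO and 75 to 208 in WT, with no overlap (-0.71 ± 0.31, limma, adjusted p = 0.603). Prdm1 was 1.71 and 2.05 FPKM in DKO against 1.69 and 1.03 FPKM in WT. As with Notum, DKO replicate 1 and WT replicate 1 were nearly equal and WT replicate 2 was the lowest (0.30 ± 0.16, limma, adjusted p = 0.674).

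**Figure D3:**
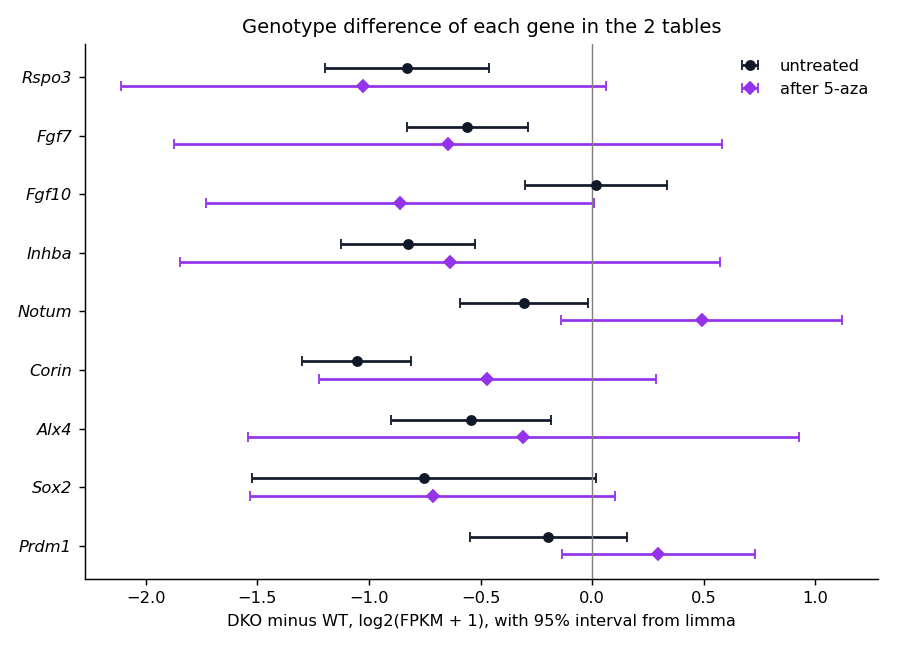
DKO minus WT difference of each gene on the log2(FPKM + 1) scale (horizontal axis) with the 95% interval from limma, for untreated libraries (circles) and 5-aza libraries (diamonds). The 5-aza intervals are the wider ones and all span 0; without drug those of Fgf10, Sox2 and Prdm1 span 0.

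The libraries of the 5-aza table shared one order over nearly all of the genes. WT replicate 1 was above WT replicate 2 and DKO replicate 2 above DKO replicate 1 in all 9 genes, and both gaps were at least 1.5-fold in 8 of them, the exception being Prdm1, against 7.56% of all tested genes. WT replicate 1 over WT replicate 2 ranged from 1.63 in Notum to 2.69 in Sox2, and DKO replicate 2 over DKO replicate 1 from 1.20 in Prdm1 to 3.02 in Fgf7. The medians of these ratios over the genes tested in both tables were 1.03 and 0.986. The same order was seen in 16 of 16 other papilla markers, 10 of 10 melanocyte markers, 8 of 10 dermal fibroblast markers and 4 of 10 hair matrix and epithelial markers. It was also seen in 7 of 10 Merkel and Schwann cell markers, 7 of 10 endothelial and mural markers and 4 of 10 inner root sheath markers. Of 10 BMP ligands, inhibitors and targets, 8 had it. The share of all genes with this order, at any size of gap, was not computed. Both gaps were at least 1.5-fold in 14 of the 16 other papilla markers, 10 melanocyte markers and 1 hair matrix and epithelial marker. The melanocyte markers summed to 30.7 FPKM in DKO replicate 1, 148 in DKO replicate 2, 103 in WT replicate 1 and 23.1 in WT replicate 2. The part of these cells in the values of the 9 genes was not tested. Without drug, WT replicate 1 over WT replicate 2 was 1.01 for Corin, 1.04 for Fgf7 and 1.18 for Inhba.

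**Figure D4:**
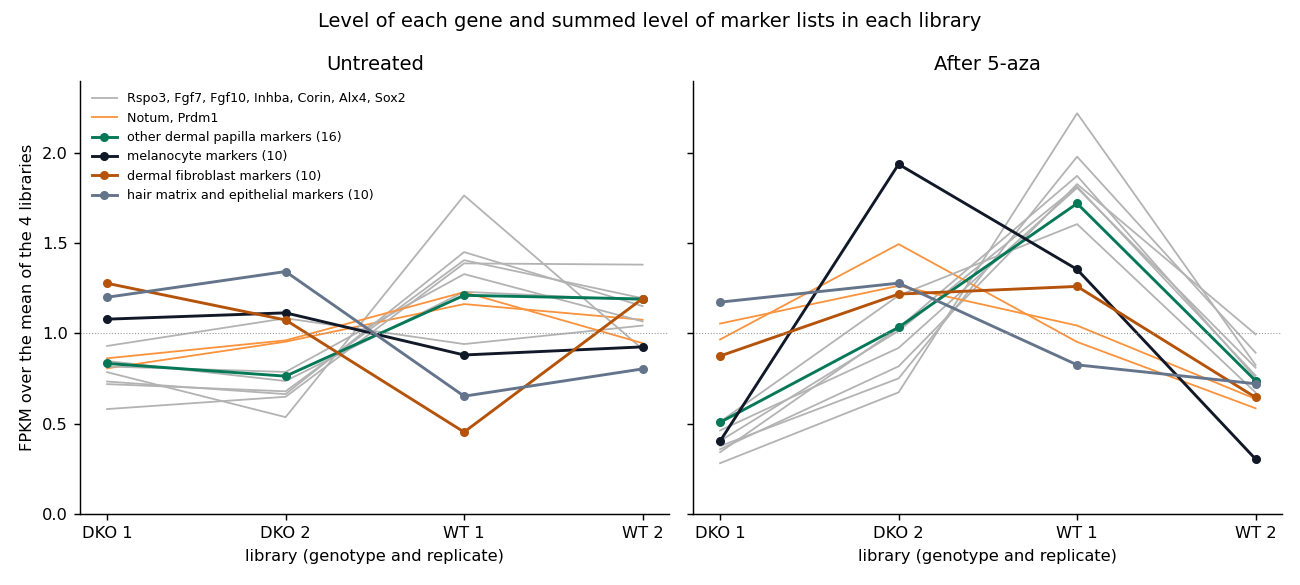
Level of each of the 9 genes (thin lines) and summed level of marker lists (lines with points) in each library, as FPKM over the mean of the 4 libraries of that table (vertical axis), without drug at left and after 5-aza at right. After 5-aza, DKO replicate 2 exceeds DKO replicate 1 and WT replicate 1 exceeds WT replicate 2 in all thin lines and in the papilla and melanocyte lists.

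Whether the genotype difference itself changed with 5-aza was tested as the interaction over 8 libraries. It called 5 of 18505 genes (0.027%) and 0 of the 9, and 0 genes without any 1 of the 5-aza libraries. Among the 9 genes 1 had an unadjusted p under 0.05, Notum, whose DKO minus WT difference was 0.80 ± 0.29 higher after 5-aza than without drug (limma, unadjusted p = 0.0327, adjusted p = 0.780). Prdm1 had an interaction of 0.49 ± 0.23 (limma, adjusted p = 0.847) and Fgf10 one of -0.88 ± 0.40 (limma, adjusted p = 0.839). Averaged over both tables, 73 genes were called (0.394%), 0 of them among the 9; 0 genes were called without DKO replicate 1 of either table, and 1 to 25 without any other single library. In that average 5 of the 9 genes were lower in DKO at an unadjusted p under 0.05, against 4.25% of all tested genes. They were Corin (-0.76, adjusted p = 0.144), Rspo3 (-0.93, adjusted p = 0.147), Sox2 (-0.73, adjusted p = 0.224), Inhba (-0.73, adjusted p = 0.253) and Fgf7 (-0.60, adjusted p = 0.329), all from limma, and Notum was at 0.09 and Prdm1 at 0.05.

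The 5-aza and untreated levels can only be set side by side, as the tables were normalized separately. In DKO the 5-aza mean was 0.08 of the untreated mean for Fgf10, 0.140 for Corin, 0.185 for Sox2, 0.192 for Alx4, 0.194 for Fgf7, 0.230 for Rspo3, 0.249 for Inhba, 0.507 for Prdm1 and 0.542 for Notum. In WT these ratios were 0.195 for Fgf10, 0.117 for Corin, 0.292 for Sox2, 0.171 for Alx4, 0.243 for Fgf7, 0.315 for Rspo3, 0.244 for Inhba, 0.308 for Prdm1 and 0.267 for Notum. The median over 15699 genes tested in both tables was 0.673 in DKO and 0.657 in WT. Rescaled to reads in listed genes, that median was 0.984 in DKO and 0.996 in WT, and the 9 genes had ratios of 0.118 (Fgf10) to 0.797 (Notum) in DKO and 0.177 (Corin) to 0.471 (Rspo3) in WT. All 9 genes were thus lower in the 5-aza table than the median gene on both scales and in both genotypes. The drug, the kit and the table cannot be told apart in these ratios. The summed fibroblast markers were also lower there, at 109 to 151 FPKM in DKO and 80.3 to 157 FPKM in WT.

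Members of the pathways that the papilla signals feed were described by the same fits. Of the 11 other activin pathway genes, 1 was called higher in DKO over both tables and 0 lower. That gene was Inhbb, the subunit of activin B, at 2.13 and 2.41 FPKM in DKO against 0.885 and 1.21 FPKM in WT without drug, and at 2.54 and 2.41 FPKM in DKO against 1.09 and 1.21 FPKM in WT after 5-aza. Its groups did not overlap in either table (0.69 ± 0.07, limma, adjusted p = 0.0179), so it was above WT in DKO where Inhba was below WT without drug. Without DKO replicate 1 of either table that fit called 0 genes, Inhbb and Krt14 among those lost. Among 16 genes of R-spondins, their receptors and other parts of the Wnt pathway, 0 were called in any of the 4 limma fits. Rspo2 is in this list and also among the other papilla markers. Lgr6, an R-spondin receptor, was 10.3 and 10.4 FPKM in DKO against 10.1 and 12.2 FPKM in WT without drug. Rspo4 was 27.4 and 27.8 FPKM in DKO against 9.57 and 21.9 FPKM in WT.

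Of the 18 FGF pathway genes, 13 were tested without drug and 15 after 5-aza, and 0 were called in either or in the fits over both tables. Dusp6, a phosphatase induced by FGF signalling, was 11.2 and 12.1 FPKM in DKO against 7.92 and 11.7 FPKM in WT without drug. Spry2, an inhibitor induced by the same pathway, had a difference of -0.22 ± 0.13 (limma, adjusted p = 0.605). In the natriuretic peptide pathway, where Corin acts in the heart, 5 of 7 genes were tested and 0 called. Furin, another protease of that pathway, differed by -0.04 ± 0.09 and the receptor Npr2 by -0.35 ± 0.10 without drug (limma, adjusted p = 0.904 and 0.339). Among 10 BMP ligands, inhibitors and targets and 13 relatives of Sox2, Alx4 and Prdm1, of which 11 were tested, 0 were called in any fit. Id3, a BMP target, differed by 0.34 ± 0.13 (limma, adjusted p = 0.436), and Sox4, a factor of the epithelium and mesenchyme, by 0.07 ± 0.12 (limma, adjusted p = 0.884).

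The order of levels among the genes depended on gene length. For 97.6% of genes in the untreated table the deposited length equalled the summed exon lengths of every GENCODE vM21 transcript, so that exons shared by transcripts were counted more than once. For Corin that length was 19412 bases against 5400 bases of union exon, and for Sox2, with 1 transcript, 2056 against 2057. Per union exonic length, untreated WT levels ran from Corin (48.7 ± 0.173 FPKM, SD, n = 2) and Alx4 (43.4 ± 6.71) through Rspo3 (24.6 ± 4.01), Fgf7 (23.3 ± 0.630), Inhba (21.3 ± 2.44), Notum (20.7 ± 1.14) and Fgf10 (19.4 ± 1.41) to Prdm1 (9.99 ± 1.84) and Sox2 (5.04 ± 2.27). The 5 genes from Rspo3 to Fgf10 overlapped each with its neighbour in that order. In untreated DKO, Alx4 (29.0 ± 0.771) came first, then Corin (21.6 ± 1.69), Fgf10 (19.7 ± 2.12), Notum (16.2 ± 1.93), Fgf7 (15.3 ± 1.51), Rspo3 (13.2 ± 0.937), Inhba (11.5 ± 0.465), Prdm1 (8.37 ± 0.645) and Sox2 (2.49 ± 0.664). Corin overlapped Fgf10 there, and Notum overlapped Fgf7.

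**Figure D5:**
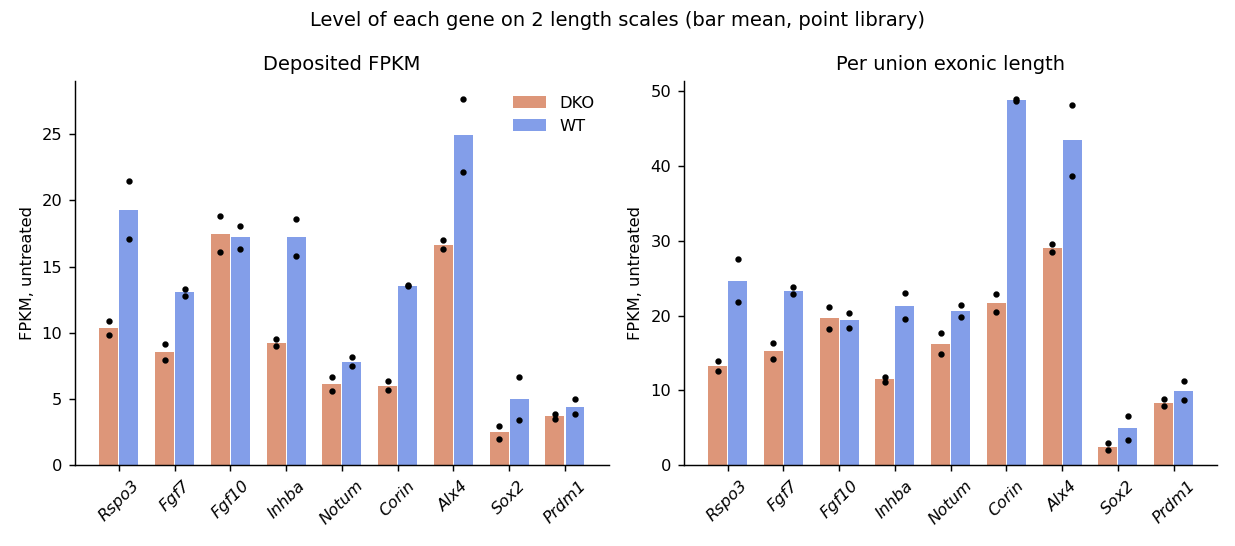
Untreated levels of the 9 genes (bars from 0 are means of 2 libraries, points the libraries, DKO left of WT) as deposited FPKM at left and per union exonic length at right. Corin has 13.6 FPKM as the higher WT value at left and is the highest of the WT genes at right, at 48.7 FPKM.

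After 5-aza the order per union length was Notum (8.81 ± 2.68), Alx4 (5.58 ± 3.21), Prdm1 (4.25 ± 0.542), Rspo3 (3.04 ± 1.43), Corin (3.02 ± 1.41), Fgf7 (2.96 ± 2.10), Inhba (2.86 ± 1.74), Fgf10 (1.57 ± 0.869) and Sox2 (0.460 ± 0.268) in DKO. In WT it was Rspo3 (7.75 ± 4.15), Alx4 (7.39 ± 4.28), Corin (5.72 ± 3.08), Fgf7 (5.67 ± 3.42), Notum (5.51 ± 1.86), Inhba (5.20 ± 2.99), Fgf10 (3.77 ± 1.57), Prdm1 (3.08 ± 1.05) and Sox2 (1.47 ± 0.953). Neighbours overlapped everywhere in these orders except Fgf10 with Sox2 in DKO and Prdm1 with Sox2 in WT. Notum was therefore the highest of the 9 in DKO after 5-aza, though it overlapped the next.

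Among the genes most like Corin over the 8 libraries, by Pearson correlation of log2(FPKM + 1) centred within each table over 15699 genes, were Magi2 (r = 0.992), Sept8 (0.988), Col9a2 (0.988) and Crispld1 (0.987). Magi2 was at 0.0558 and 0.0646 FPKM in untreated DKO against 0.106 and 0.0983 FPKM in untreated WT, and Col9a2, a chain of a cartilage collagen, was at 0.819 and 1.04 against 2.13 and 2.09 FPKM. Inhba ranked 113th by the same measure (r = 0.929). The 8 points share their tables and groups, and the values are a description of these libraries.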

How the data were processed

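RNA was sequenced from 8 libraries of sorted hair matrix keratinocytes in 4 groups of 2. Per the submitters' processing notes, Trim Galore, STAR, HTSeq and DESeq2 were used with GRCm38 and mm10; versions and strand setting are not given in the sources used here. The authors deposited 2 tables (untreated and 5-aza). Their library columns are FPKM, of which value times deposited length is a whole read number within 0.001 for 100% of genes, so whole reads and library totals were recovered. The deposited mean is a signal column of normalized reads, the deposited log2 fold changes and standard errors were turned to DKO over WT, and the deposited statistic is a score. The authors' p-value columns hold the p and adjusted p of their DESeq2 run. Gene length, deposited in bases, is of unit other. Rows that name no gene stayed out of the reads in listed genes and out of all tests. The library totals behind FPKM exceeded those reads, so FPKM was not scaled to reads in listed genes alone. Reads in no feature were 36.5% of the rows' sum in the untreated table and 37.6% in the 5-aza table. Rows of unaligned reads (11.9%) and low-quality alignments (4.96%) were held by the 5-aza table only.

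In R 4.3.3, limma 3.58.1 with a trended variance was run on log2(FPKM + 1); p-values are two-sided and Benjamini-Hochberg adjusted over all tested genes, with a threshold of 0.05. Fold changes understate low genes on this scale. Genes needed 10 reads at the median library size in 2 libraries and 15 reads in all. All 9 genes passed in both tables. The fit was tested on simulated reads. Their spread between replicates was a fixed setting, not taken from these libraries, so that test does not measure power here. Fits compared DKO with WT in each table, their difference (interaction) and their mean. Replicates of a group were not identical. Members, lists and tests were chosen with earlier results of these data known. Named genes were the 9; in each other list, those past the threshold or else the 2 of highest mean FPKM; and the 5 most like Corin, of which 1 is not reported here. Union exon lengths came from GENCODE vM21. Alternatives were the pseudocount, filters, variance trend, scaling, voom, the replicate block, leaving out each library, all libraries in 1 fit and union length.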

Additional observations from a re-analysis of the deposited data

Results flagged for a closer look

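On deposited FPKM, Notum had both DKO libraries below both WT libraries without drug and both DKO libraries above both WT libraries after 5-aza. The interaction, a test of that difference over 8 libraries, was 0.80 on the log2(FPKM + 1) scale (limma, unadjusted p = 0.0327, adjusted p = 0.780), so it did not pass after adjustment over 18505 genes. No other gene of the 9 met this condition, since the untreated groups of Prdm1 overlapped. On values scaled to reads in listed genes, Notum did not meet it either. Its 5-aza groups then overlapped, at 6.19 and 10.1 in DKO against 6.59 and 4.14 in WT. The share of all genes with such a reversal was not computed.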

How the results depend on the processing

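The number of genes called without drug (1) became 8 with a pseudocount of 0.1, 0 without a filter on low values, 0 with a filter of 0.1 FPKM, 0 without the variance trend, 147 with voom, 129 with all 8 libraries in 1 fit, 37 with FPKM per union exonic length and 0 to 1 when a library was left out. For 5-aza (0) it was 1 with all 8 libraries in 1 fit and 0 in the other planned settings. The interaction count (5) was 1 with a pseudocount of 0.1, 2 without a filter, 2 with the 0.1 FPKM filter, 2 without the trend, 2 with scaling to reads in genes, 1 with voom and 0 to 8 without a library. The count over both tables (73) was 24 without a filter, 478 with voom, 137 per union exonic length and 0 to 25 without a library. The cause of these changes was not tested. With the replicate block the counts were 13 without drug, 0 for the interaction and 0 over both tables, and, with numbers as labelled, no call of the 9 genes changed. The labels share replicate numbers, but with 2 pairs per table and correlations of replicate deviations of 0.03 without drug and -0.59 after 5-aza, the numbers were not taken to pair the libraries. Replicate 1 of the untreated libraries had high Xist in both genotypes, so the untreated block also compares libraries of like Xist level. A block that crosses the 5-aza numbers pairs WT replicate 1 with DKO replicate 2, which is the order that all 9 genes share. It called 91 of 16856 genes, 4 of the 9 among them. These calls rest on the same values as that order and are no separate support.

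The median of the 9 differences ranged from -0.70 to -0.39 without drug when a library was left out. The median of the 9 interactions (0.19) ranged from -0.30 to 0.68 and turned negative without WT replicate 2 or DKO replicate 2 of the 5-aza table. With all libraries kept, that median was 0.038 with a pseudocount of 0.1, 0.049 with scaling to reads in genes and 0.068 with voom. The untreated difference of Fgf10 was -0.0070 with median-ratio scaling, -0.018 with scaling to reads in genes and -0.0044 in the authors' deposited table, and ranged from -0.086 to 0.12 without a library. Untreated Sox2 ranged from -1.15 to -0.36, Prdm1 from -0.35 to -0.043 and Notum from -0.41 to -0.20. After 5-aza the median of the 9 ranged from -1.12 to -0.15, Alx4 from -0.81 to 0.19, Corin from -0.81 to -0.13, Inhba from -1.13 to -0.15, Fgf7 from -1.13 to -0.16, Rspo3 from -1.51 to -0.54, Fgf10 from -1.20 to -0.53, Sox2 from -1.12 to -0.31, Notum from 0.25 to 0.73 and Prdm1 from 0.095 to 0.50. Interactions without a library ranged from -0.30 to 0.68 for Inhba, -0.68 to 0.29 for Rspo3, -0.26 to 0.73 for Alx4, -0.57 to 0.40 for Fgf7 and -0.37 to 0.44 for Sox2, and that of Sox2 was -0.49 with a pseudocount of 0.1, -0.25 with scaling to reads in genes and -0.59 with voom. Over both tables Notum ranged from -0.083 to 0.21 and Prdm1 from -0.080 to 0.16. Other directions of the 9 genes held in all settings. Union length and the crossed block were chosen after the data were seen. Sox2 had the fewest reads of the 9 genes, 22 in DKO replicate 1 after 5-aza. A fit without a library assumes that its lone replicate varies like the other groups.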
